A study of Mus musculus with 18 samples.

Results

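The response of mouse embryonic stem (ES) cells to an inhibitor of the kinase GSK3 was described across all expressed genes, in cells grown for 48 h in a 3D gel. The comparison holds 6 of the 18 RNA-sequencing samples of the series, chosen by their labels as the 3 samples named CH and the 3 named DMSO. CH is the GSK3 inhibitor CHIR99021, given at 3 µM, and DMSO is dimethyl sulfoxide, the solvent of the compound. All 6 samples are wild-type cells of the E14 line at passage 20, listed under the strain 12910la, and carry no edited allele. Before the experiment the cells were kept on 0.2% gelatin in 2i/Lif, that is with CHIR99021, the MEK inhibitor PD0325901 and 4 ng/ml of the cytokine Lif. They were then embedded at 2000 cells per µl in Matrigel depleted of growth factors and covered with the serum-free medium N2B27, at 37 °C and 5% CO2. The DMSO cells had thus left both inhibitors and Lif for 48 h, and the CH cells had left the MEK inhibitor and Lif but kept the GSK3 inhibitor. A further condition, 2i (CHIR99021 at 3 µM with PD0325901 at 0.4 µM, 3 samples of the same cells and time), was used to ask which levels changed further when MEK was inhibited as well. The fit also took in the 3 samples grown with Fgf2 (12 ng/ml) and Activin A (20 ng/ml), only for the spread between replicates. The methods describe experiments in general as repeated independently, but neither they nor the labels tie each RNA sample to a culture of its own, so the p-values measure the spread between these samples, part of which may be technical.

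GSK3 phosphorylates β-catenin and so marks it for degradation. When the kinase is inhibited, or when a Wnt ligand binds its receptor, β-catenin accumulates and joins the DNA-binding TCF/LEF factors. In ES cells this relieves the repression of naive pluripotency genes by Tcf7l1, and in the embryo the same pathway starts the primitive streak, where the epiblast forms mesoderm and definitive endoderm. GSK3 also phosphorylates other proteins, among them glycogen synthase, after which it is named.

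The DMSO samples held 25706865 to 37158661 reads counted in genes and the CH samples 25388139 to 30799376. Levels are given below as counts per 1000000 (CPM), with library sizes scaled by the trimmed mean of M-values (TMM), in the order of replicates 1, 2 and 3, and means as mean ± SD (n = 3). The 6 markers of ES cells checked, Pou5f1 among them, summed to 2236 to 2562 CPM in DMSO and 1737 to 2495 in CH. Markers of other cell types that such a culture can hold were summed in the same way. The 6 of primitive endoderm gave 8.81 to 10.4 CPM in DMSO and 2.88 to 3.34 in CH, the 6 of trophoblast 9.49 to 22.9 and 46.5 to 96.2, and the 7 of fibroblasts 20.2 to 51.5 and 6.84 to 9.22. The sums of primitive endoderm, trophoblast and fibroblast markers did not overlap between DMSO and CH, while the ES cell sums did. Their part in the results was not tested. Replicate 1 stood apart in each condition. Within a group, the chi-square statistic per gene between replicates was 59.8 to 80.5 for pairs with replicate 1, against 10.2 for DMSO 2 and 3 and 6.38 for CH 2 and 3, where sampling alone gives about 1. The replicate number was kept as a block in the fit.

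Of 16413 genes tested, 3608 (22.0%) passed an adjusted p of 0.01 with a change of more than 1 on the log2 scale, in edgeR's quasi-likelihood test after Benjamini-Hochberg correction. Of these, 1522 (9.27%) were higher in CH and 2086 (12.7%) were lower. These shares over all genes are the background for the counts of each list below. A list near them responded no more than genes at large. With replicates 2 and 3 alone, 1573 genes were higher and 2176 were lower. Below, a gene is said to have risen or fallen only where it passed both thresholds. These and like words compare conditions at 48 h. The series holds no sample from the start of the culture, so change over time was not measured. A gene said to have risen may have gained RNA in CH or lost it in DMSO. The median log2 fold change over all genes tested was -0.0020. In 8156 genes (49.7% of those tested) the CH and DMSO samples did not overlap. A lack of overlap, given for single genes below, is thus common and does not by itself set a gene apart. Changes of more than 3 on the log2 scale were found for 350 genes that rose and 470 that fell. Protein-coding genes fell more often than they rose (1936 and 1168 of 14182 tested), and long intergenic RNAs rose more often than they fell (93 and 45 of 452). Among abundant genes (a mean of at least 50 CPM over the 6 samples), the 10 that rose most were Sp5, T, Nkx1-2, Ntn1, Cnpy1, Nrp2, Trh, Alpl, Nr5a2 and Alox15. The 10 that fell most were Pou3f1, Krt18, Sall2, Kif1a, Trp53i11, Lrp2, Kif21a, Flnc, Rab15 and Crmp1. A change in bulk RNA does not tell apart fewer cells that express a gene from less RNA of it per cell, and this holds for every value below.

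**Figure D1:**
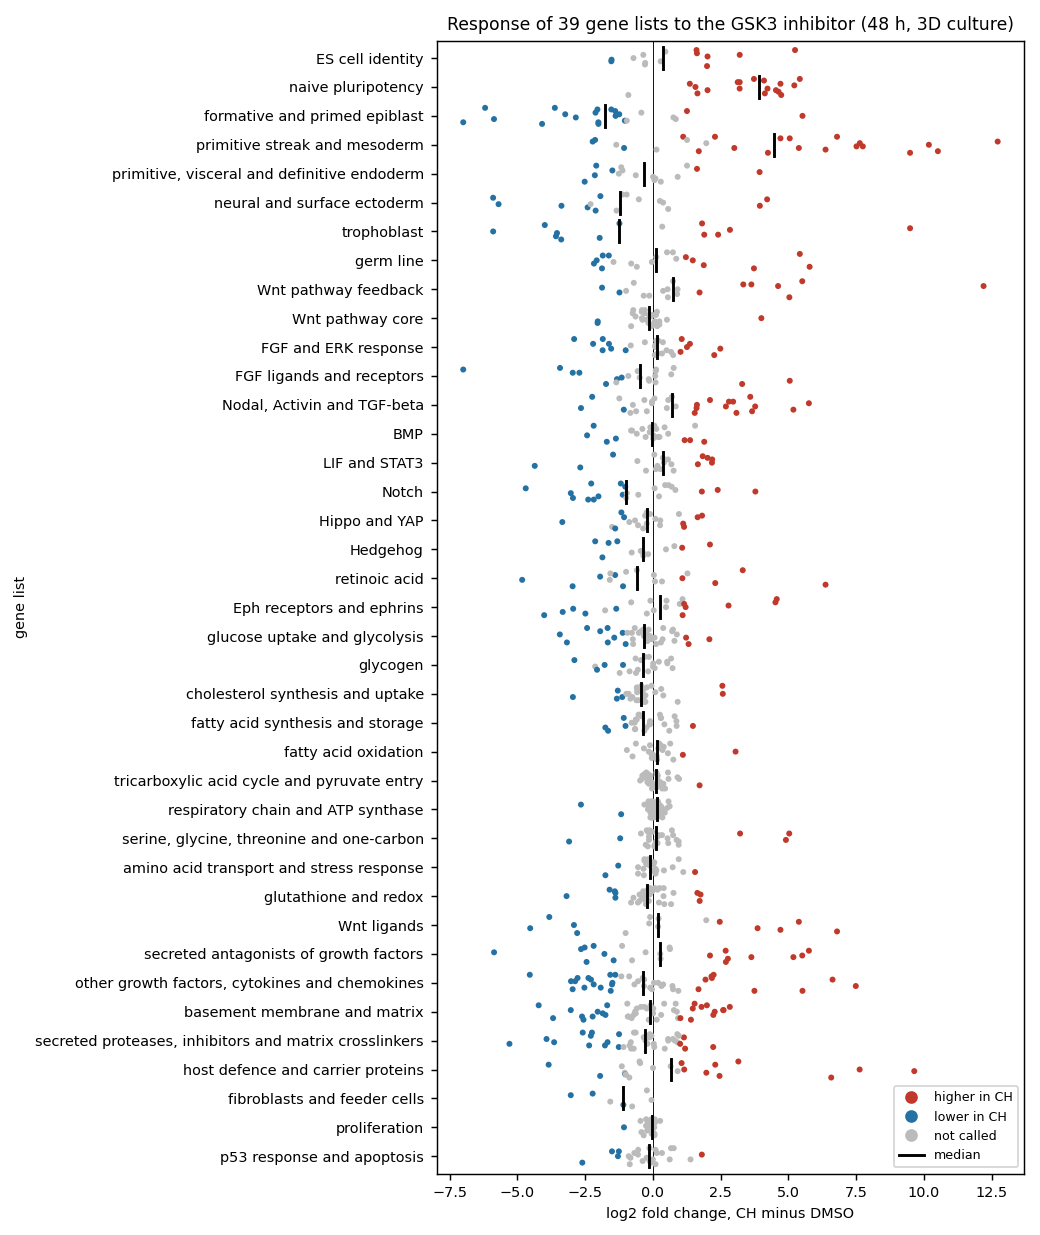
Log2 fold change (CH minus DMSO) of each tested member of the 39 gene lists, 1 row per list, with filled points for genes that rose (red) or fell (blue), grey points for those that did neither, and a black bar at the median of the list. The naive (median 3.91) and the primitive streak and mesoderm lists (4.47) lie farthest to the right, and the formative and primed list (-1.77) lies farthest to the left.

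Genes of the naive state rose almost as a whole. Of 18 tested members of the list, 17 rose and 0 fell, with a median log2 fold change of 3.91. Nanog, a homeobox factor that holds cells in the naive state, stood at 67.9, 5.92 and 2.78 CPM in DMSO and at 358, 248 and 276 CPM in CH. All CH samples lay above all DMSO samples, but the first DMSO sample held more Nanog RNA than the others (log2 fold change 4.10, SE 0.64, adjusted p = 0.000254). The value depended on the DMSO samples, and was 5.82 without DMSO replicate 1 and 3.49 without DMSO replicate 3. Esrrb, an orphan nuclear receptor of the same network, stood at 30.2, 8.98 and 6.87 CPM in DMSO and 363, 286 and 313 CPM in CH (log2 fold change 4.54, SE 0.34, adjusted p = 1.1e-06). Tfcp2l1, a factor that holds cells in self-renewal, rose from 30.2, 9.36 and 7.75 to 298, 251 and 259.8 CPM (log2 fold change 4.23, SE 0.31, adjusted p = 1.01e-06). Both genes were also highest in the first DMSO sample, and without it their log2 fold changes were 5.19 (Esrrb) and 4.85 (Tfcp2l1). In neither did the groups overlap. The Krüppel-like factor Klf4 (chromosome 4, 55527143 to 55532466, GRCm38) was measured at 6.48, 3.79 and 3.39 CPM in DMSO and 115, 56.3 and 70.1 CPM in CH, a 17.5-fold difference (log2 fold change 4.13, SE 0.09, adjusted p = 3.32e-10). Klf2 rose from 16.4 ± 3.18 to 141 ± 16.2 CPM and Klf5, with the smallest change of these family members, from 34.3 ± 11.1 to 99.4 ± 1.70 CPM. Nr5a2, a nuclear receptor that can drive Pou5f1, was at 4.80, 2.72 and 3.36 CPM in DMSO and 94.00, 154 and 173 CPM in CH, a 37.2-fold rise. Prdm14, a repressor of Fgf signalling and DNA methylation in these cells, rose 42.8-fold but stayed low, at 7.98 ± 2.00 CPM in CH. Here the 2i samples reached a mean of 30.03 CPM, and each was above every CH sample (log2 fold change 1.94, SE 0.17, adjusted p = 5.91e-05 for 2i minus CH). Zfp42 (Rex1) rose from 42.7 ± 7.53 to 396 ± 69.2 CPM, where 26.9% of its transcript matches other genes, so that some reads could be counted elsewhere or not at all. Of the Nanog transcript 20.6% is shared in the same way.

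The general ES cell list was mixed, with 6 of 14 members that rose and 2 that fell (median 0.37). Pou5f1 (Oct4), which all pluripotent states express, was at 533, 634 and 639.8 CPM in DMSO and 662, 921 and 916 CPM in CH. The groups did not overlap, as in 49.7% of all genes tested, but the log2 fold change of 0.46 (SE 0.06, adjusted p = 9.8e-05) was below the fold threshold. Its partner Sox2 rose 4.04-fold, from 84.6 ± 8.77 to 341 ± 30.2 CPM. Alpl, the alkaline phosphatase used to stain pluripotent colonies, was at 4.00, 6.17 and 7.21 CPM in DMSO and 279, 189 and 193 CPM in CH (log2 fold change 5.24, SE 0.23, adjusted p = 2.25e-08). It was the member with the largest change of this list. Utf1, a chromatin protein of pluripotent cells, fell from 685 ± 9.54 to 243 ± 75.2 CPM, and the adhesion protein Epcam from 343 ± 37.4 to 119 ± 8.06 CPM. Tested against a minimum change of 1 on the log2 scale, Utf1 was no longer called.

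**Figure D2:**
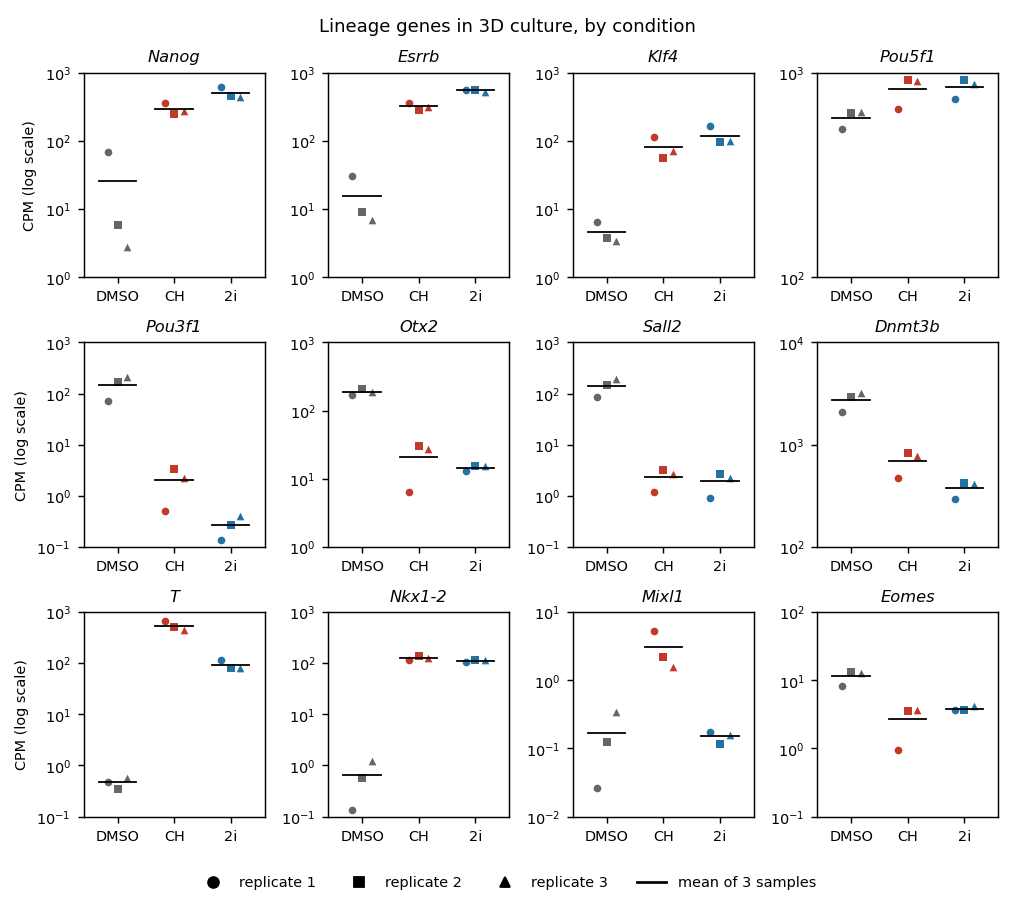
CPM per sample (log axis) of 12 lineage genes in DMSO, CH and 2i, with 1 point per sample, a marker shape per replicate and a bar at the mean. Naive genes (top row, with Pou5f1) and streak genes (bottom row, apart from Eomes) are higher in CH than in DMSO, and formative genes (middle row) are lower, while T is lower in 2i (79.0 to 114 CPM) than in CH (436 to 665 CPM).

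The formative and primed list, the state that follows the naive state in the embryo after implantation, moved the other way. Of its 22 tested members 16 fell and 2 rose, with a median log2 fold change of -1.77. Pou3f1 (Oct6), the POU factor of the post-implantation epiblast, was at 72.5, 169.9 and 207 CPM in DMSO and 0.511, 3.27 and 2.20 CPM in CH (log2 fold change -6.19, SE 0.32, adjusted p = 7.28e-08). Fgf5, a growth factor that marks this epiblast, was at 27.5, 54.2 and 58.7 CPM in DMSO and 0, 0.556 and 0.520 CPM in CH (log2 fold change -7.00, SE 0.44, adjusted p = 2.83e-07). Both genes were lowest in the first sample of each group. Otx2, which guides the exit from the naive state, fell from 167, 207 and 189 to 6.44, 29.9 and 27.3 CPM (log2 fold change -3.24, SE 0.33, adjusted p = 1.01e-05). Sox3, a Sox factor of the epiblast and neural plate, fell from 77.3 ± 31.6 to 4.33 ± 1.21 CPM. The zinc finger gene Sall2 showed a larger change, from 87.2, 147 and 188 to 1.19, 3.24 and 2.72 CPM, which is 58.3-fold lower. The de novo DNA methyltransferase Dnmt3b (chromosome 2, 153649450 to 153687730, GRCm38) was at 2074, 2955 and 3221 CPM in DMSO and 467, 835 and 766 CPM in CH (log2 fold change -2.01, SE 0.09, adjusted p = 2.24e-08). Dnmt3a fell by a like amount, from 528 ± 106 to 121 ± 23.04 CPM. Trh, which encodes thyrotropin-releasing hormone, rose against the direction of the list, from 19.3, 20.7 and 24.7 CPM to 868, 1051 and 1034 CPM (log2 fold change 5.52, SE 0.19, adjusted p = 4e-09).

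Genes of the primitive streak and mesoderm rose beside the naive genes. Of 24 tested members, 17 rose and 3 fell, and the median log2 fold change was 4.47. Tbx3, a T-box factor that the naive list holds as well, rose from 2.73 ± 1.45 to 73.1 ± 2.45 CPM. T (Brachyury, chromosome 17, 8434423 to 8442496, GRCm38), the T-box factor that defines the streak, was at 0.480, 0.344 and 0.579 CPM in DMSO and 665, 502 and 436 CPM in CH. This is 1159.8-fold higher (log2 fold change 10.18, SE 0.24, adjusted p = 5.16e-10), with less than 1 CPM in each DMSO sample. Cdx1, a caudal homeobox factor of the posterior axis, had no read in any DMSO sample and 35.9, 23.7 and 22.5 CPM in CH, at least 284-fold higher against a floor of 3 counts per library. The related Cdx2 rose from 0, 0.125 and 0.154 to 91.9, 54.1 and 45.4 CPM, and its log2 fold change of 9.49 was 8.87 without CH replicate 1 and 8.70 without DMSO replicate 1. Evx1, an even-skipped homeobox factor of the streak, had a single read over the DMSO samples and 21.5, 21.7 and 19.7 CPM in CH, a ratio of 2006 with a counting interval of 359.6 to 79274. Its fitted log2 fold change of 10.51, which depends on the prior count, was 9.89 without DMSO replicate 2 and 12.37 without DMSO replicate 3. Nkx1-2, a homeobox gene of the streak and tail bud, was at 0.133, 0.563 and 1.23 CPM in DMSO and 116, 135 and 126 CPM in CH (log2 fold change 7.74, SE 0.35, adjusted p = 2.49e-08), and the log2 fold change was 8.53 without DMSO replicate 3. Mixl1, a homeobox factor of the streak, reached 5.28, 2.22 and 1.56 CPM in CH (log2 fold change 4.24), and Fgf8, a growth factor that streak cells need to migrate, reached 9.98, 4.71 and 2.80 CPM (log2 fold change 5.05). Both were highest in the first CH sample. Over the fits without 1 sample, the log2 fold change of Mixl1 went from 3.33 (without DMSO replicate 1) to 5.40 (without DMSO replicate 3), and was 3.39 and 4.90 without CH replicates 1 and 3. That of Fgf8 was 4.07 without CH replicate 1 and 5.89 without DMSO replicate 3. Eomes, a T-box factor of anterior streak and definitive endoderm, fell from 8.33, 13.3 and 12.8 to 0.954, 3.50 and 3.68 CPM (log2 fold change -2.13, SE 0.26, adjusted p = 3.73e-05).

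Of the 17 streak and mesoderm genes that rose, 14 were lower in 2i than in CH. Among all 1522 genes that rose, 123 were lower in 2i than in CH and 73 were higher. For comparison, 138 of all genes tested (0.841%) were higher in 2i than in CH and 534 (3.25%) were lower. Without the replicate block these counts were 52 and 274, and without single samples they went down to 79 (without CH replicate 2) and 325 (without 2i replicate 2), with 88 higher genes without 2i replicate 2 and 338 and 351 lower genes without CH replicate 2 and 2i replicate 3. Both contrasts share the CH samples, so genes picked as high in CH lean towards lower values in 2i minus CH. The counts are given side by side and were not tested. T fell from a mean of 534 CPM in CH to 91.03 in 2i (log2 fold change -2.55, SE 0.15, adjusted p = 4.96e-06), which is still above every DMSO sample. Cdx2 was at 7.07, 10.5 and 12.7 CPM and Evx1 at 1.18, 3.63 and 2.87 CPM in 2i, both again between the CH and the DMSO levels. Mixl1 (0.174, 0.118 and 0.156 CPM) and Fgf8 (0.139, 0.206 and 0.219 CPM) were in the range of the DMSO samples in 2i, with log2 fold changes of -4.25 and -4.88 for 2i minus CH. Nkx1-2 did not follow, at 105, 117 and 115 CPM in 2i (log2 fold change -0.16, SE 0.21, adjusted p = 0.659 for 2i minus CH).

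Genes of other lineages changed in both directions. Of 16 endoderm genes tested, 2 rose and 4 fell (median -0.31). Hnf4a, a nuclear receptor of visceral endoderm, rose from 0.187, 0.0313 and 0.0386 to 2.25, 0.981 and 1.04 CPM, with a log2 fold change of 3.93 that was 4.82 without DMSO replicate 1. Sox7 and Dab2, which mark primitive endoderm, fell from 1.59 ± 0.245 to 0.280 ± 0.142 CPM and from 5.61 ± 0.186 to 1.27 ± 0.378 CPM. None of these genes exceeded 6 CPM in any of the 6 samples. Of 16 neural and surface ectoderm genes, 2 rose and 6 fell (median -1.23). Tfap2a, a factor of surface ectoderm and neural crest, rose from 1.31, 1.47 and 1.54 to 25.3, 26.98 and 27.6 CPM (log2 fold change 4.21, SE 0.11, adjusted p = 8.75e-10), with the samples of each group close together. The homeobox gene Irx3 fell from 3.84, 4.69 and 7.10 to 0.102, 0.131 and 0.0400 CPM. Of 13 trophoblast genes, 5 rose and 7 fell (median -1.24), and the keratins were among those that fell. Krt18, an intermediate filament of simple epithelia, was at 247, 82.9 and 78.00 CPM in DMSO and 2.96, 1.47 and 2.00 CPM in CH (log2 fold change -5.90, SE 0.18, adjusted p = 2.46e-09). Krt8, its filament partner, fell from 50.6 ± 31.6 to 4.05 ± 1.75 CPM, with 51.8% of its transcript shared with other genes. The summed level of 6 trophoblast markers was nonetheless higher in CH (46.5 to 96.2 CPM) than in DMSO (9.49 to 22.9 CPM), and Cdx2, 1 of the 6, makes up most of the sum in CH. Tpbpa, a marker of the spongiotrophoblast, was at 0 in all 6 samples. Of 19 germ line genes, 6 rose and 5 fell (median 0.12). Dppa3 (Stella) rose from 2.87 ± 0.721 to 37.8 ± 5.39 CPM, with 54.1% of its transcript shared with other genes.

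Among the feedback targets of the Wnt pathway itself, 7 of 19 rose and 2 fell (median 0.74). Sp5, a zinc finger factor that TCF/LEF factors switch on directly, had 0 to 3 reads per DMSO sample and stood at 307, 164 and 168 CPM in CH. The ratio was 5116, with a counting interval of 1998 to 18780.0 that covers counting error only. The fitted log2 fold change of 12.20, which depends on the prior count, was 11.58 without DMSO replicate 1 and 13.57 without DMSO replicate 2. Axin2, a scaffold that helps to degrade β-catenin, was at 9.02, 6.51 and 7.91 CPM in DMSO and 270.1, 158 and 156 CPM in CH (log2 fold change 4.62, SE 0.17, adjusted p = 5.61e-09). The groups did not overlap in any of these genes, and the first CH sample was the highest for both. Notum, a secreted enzyme that inactivates Wnt ligands, rose from 0.991 ± 0.187 to 46.6 ± 7.32 CPM, although 38.1% of its exons overlap another gene. Tnfrsf19 (Troy), a receptor of the tumour necrosis factor family, rose from 8.77 ± 3.05 to 85.6 ± 8.23 CPM. Not all known targets followed: Lef1 was at 15.3, 90.01 and 74.7 CPM in DMSO and 64.6, 82.8 and 83.1 CPM in CH and Tcf7 at 163, 101 and 81.9 and 172, 133 and 131 CPM, and neither passed (log2 fold changes 0.54 and 0.37). Nkd2, an inhibitor of the pathway, fell from 5.40 ± 0.811 to 1.54 ± 1.06 CPM.

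The core of the pathway moved little, with 1 of 27 members that rose and 2 that fell (median -0.16). Porcn, the enzyme that attaches the lipid needed for Wnt secretion, rose from 0.881, 2.35 and 1.35 to 26.2, 22.4 and 22.4 CPM (log2 fold change 4.00, SE 0.25, adjusted p = 2.46e-07). Tcf7l1, the repressor that keeps naive genes in check, was at 174, 143 and 145 CPM in DMSO and 16.9, 50.5 and 51.5 CPM in CH (log2 fold change -2.04, SE 0.31, adjusted p = 0.00021). Its level in the first CH sample was lower than in the others. The RNA of β-catenin itself (Ctnnb1) was at 706 ± 55.3 CPM in DMSO and 631 ± 63.3 CPM in CH, a log2 fold change of -0.16.

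The core TCF/LEF motif, CTTTGAT on either strand, was sought in RefSeq promoter windows of 250 bases before to 50 after each start (GRCm38.p6). It was found for 4.01% of the 922 genes that rose and have a window, 2.12% of the 1508 that fell and 3.10% of all 11726 tested genes with one, against 4.29% of all 27025 genes in the promoter table. None of the 13 naive and 18 streak and mesoderm genes with a window held the motif. Lists of this size are too small to tell that apart from the 3.10% of all tested genes. The motif was found for 37 of the genes that rose and 32 of those that fell. Among these, Sp5, Nrp2, Wnt5b, Foxa2, Tnfrsf19 and Wnt11 rose, and Pim2, Cubn, Cxcl12, Rbp4 and Stra6 fell. The named genes were drawn only from the called genes of the lists and the abundant genes with the largest changes. The call of Foxa2 was lost under 8 of the alternatives given below, among them the DESeq2 test. The 200 bases before the start site are shown for 3 genes that rose and for Pim2, which fell, to let the motif be read in its setting. Each runs 5′ to 3′ on the strand of the gene, with the motif, or its reverse complement, in capitals. The windows are chr2:70474723-70474922 (plus strand) for Sp5, chr1:62703117-62703316 (plus) for Nrp2, a co-receptor of semaphorins and Vegf, and chr6:119449387-119449586 (minus) for the ligand Wnt5b. For the kinase Pim2 the window is chrX:7878106-7878305 (plus).
Sp5: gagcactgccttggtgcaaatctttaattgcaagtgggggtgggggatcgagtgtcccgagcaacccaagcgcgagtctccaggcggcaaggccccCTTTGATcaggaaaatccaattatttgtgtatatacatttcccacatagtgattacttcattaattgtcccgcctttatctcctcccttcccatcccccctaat
Nrp2: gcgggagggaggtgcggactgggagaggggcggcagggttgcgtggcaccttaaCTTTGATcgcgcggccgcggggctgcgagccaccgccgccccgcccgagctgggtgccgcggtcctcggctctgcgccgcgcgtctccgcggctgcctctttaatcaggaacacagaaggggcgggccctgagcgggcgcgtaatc
Wnt5b: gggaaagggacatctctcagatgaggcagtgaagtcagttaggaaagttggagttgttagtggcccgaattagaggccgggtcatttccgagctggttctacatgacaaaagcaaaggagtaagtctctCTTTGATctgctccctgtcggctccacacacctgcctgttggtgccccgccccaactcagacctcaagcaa
Pim2: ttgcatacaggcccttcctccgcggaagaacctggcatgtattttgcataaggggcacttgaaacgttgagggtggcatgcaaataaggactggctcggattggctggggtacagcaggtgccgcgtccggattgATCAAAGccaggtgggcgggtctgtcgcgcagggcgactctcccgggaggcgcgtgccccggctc
The motif begins 104 bases before the start site in Sp5, 146 in Nrp2, 71 in Wnt5b (1 of its 3 windows) and 65 in Pim2. Nrp2 rose from 0.827, 1.22 and 1.58 to 66.4, 111 and 127 CPM (log2 fold change 6.38, SE 0.17, adjusted p = 8.75e-10), and the values of the others stand with their pathways. A match describes the letters of the window and does not show that a factor binds there.

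The genes that Fgf/Erk signalling switches on did not move as a group. Of 26 tested, 6 rose and 7 fell, and the median was 0.15. Egr1, an immediate early factor, was at 33.6, 23.3 and 24.1 CPM in DMSO and 135, 159 and 162 CPM in CH (log2 fold change 2.49, SE 0.20, adjusted p = 1.79e-06). Dusp4, a phosphatase that turns Erk off, went the other way, from 165, 172 and 220.3 to 51.6, 54.2 and 47.5 CPM (log2 fold change -1.86, SE 0.21, adjusted p = 2.13e-05). Dusp6, another Erk phosphatase, was at 89.98, 75.02 and 78.8 and 92.4, 81.9 and 80.9 CPM, and its log2 fold change was 0.07. In 2i, where MEK is inhibited, Egr1 was at 1.74, 1.15 and 0.875 CPM (log2 fold change -6.93, SE 0.28, adjusted p = 3.49e-07 for 2i minus CH), below every DMSO sample. Dusp4 fell to 4.42, 8.35 and 7.97 CPM and Dusp6 to 19.8, 26.9 and 26.4 CPM in 2i, also below all samples of the other groups. Spry4, a feedback inhibitor of receptor kinases, was at 13.8, 19.8 and 32.5 CPM in DMSO, 31.3, 36.9 and 37.7 in CH and 2.51, 7.08 and 7.41 in 2i. Thus all 4 genes were lower in 2i than in CH, whatever their direction between CH and DMSO.

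**Figure D3:**
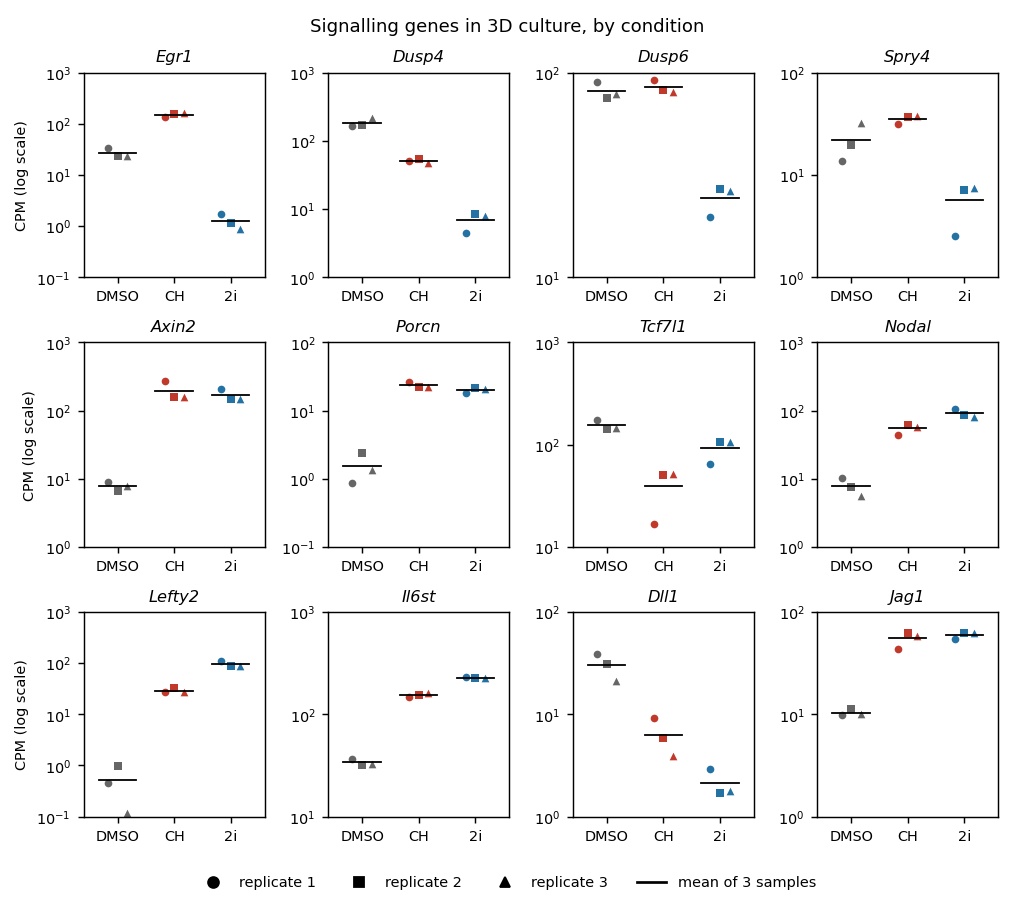
CPM per sample (log axis) of 12 signalling genes in DMSO, CH and 2i, with 1 point per sample, a marker shape per replicate and a bar at the mean. Egr1, Dusp4, Dusp6 and Spry4 (top row) are lowest in 2i, whereas Axin2 and Porcn lie far above DMSO in both CH and 2i (log2 fold changes of -0.19 and -0.26 for 2i minus CH).

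Components and targets of the Nodal branch rose more often than they fell, with 13 of 29 TGFβ and Nodal genes higher and 3 lower (median 0.70). Nodal, the ligand that patterns the epiblast, was at 10.4, 7.64 and 5.59 CPM in DMSO and 43.8, 62.2 and 58.2 CPM in CH (log2 fold change 2.80, SE 0.19, adjusted p = 5.08e-07). Its secreted antagonists Lefty1 and Lefty2 rose from 0.970 ± 0.540 to 35.8 ± 6.33 CPM and from 0.513 ± 0.430 to 28.8 ± 2.87 CPM. Smad7, the inhibitory Smad, rose from 2.62, 2.35 and 1.12 to 22.7, 24.95 and 27.04 CPM. Every CH sample was above every DMSO sample in these 4 genes, and Lefty2 was higher again in 2i (113, 88.6 and 87.3 CPM, log2 fold change 1.74, SE 0.18, adjusted p = 0.000108 for 2i minus CH). Without DMSO replicate 2 the log2 fold change of Lefty2 between CH and DMSO moved from 5.75 to 6.48. About 17.8% of the Lefty1 and 18.2% of the Lefty2 transcript are shared with other genes. Ltbp1, which anchors latent TGFβ in the matrix, fell from 26.1 ± 3.43 to 5.52 ± 0.841 CPM. Among 24 BMP genes 3 rose and 4 fell (12.5% and 16.7%, median -0.04), near the shares over all genes. This list was small and unsteady: 1 gene rose when CH replicate 2 or 3 or DMSO replicate 2 or 3 was left out, or without the replicate block, and 2 fell without CH replicate 1 or 2.

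Of 19 genes of the Lif and Stat3 pathway, 5 rose and 3 fell (median 0.37). Both receptor chains rose. Il6st (gp130) was at 36.5, 32.3 and 32.9 CPM in DMSO and 148, 153 and 160.4 CPM in CH (log2 fold change 2.18, SE 0.07, adjusted p = 2.86e-09), and Lifr at 11.3, 13.9 and 14.1 and 53.8, 60.2 and 63.2 CPM. Stat3, the factor they activate, rose from 26.4 ± 9.74 to 82.1 ± 17.2 CPM. Pim2, a serine kinase, fell from 349, 976 and 1082 to 42.2, 191 and 163 CPM (log2 fold change -2.68, SE 0.15, adjusted p = 1.39e-07), and in both groups its first sample was the lowest.

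Notch genes fell more often than they rose, with 10 of 22 lower and 3 higher (median -0.98). The ligand Dll1 was at 39.1, 30.9 and 21.2 CPM in DMSO and 9.20, 5.92 and 3.92 CPM in CH (log2 fold change -2.28, SE 0.16, adjusted p = 6.8e-07). Hes6, a basic helix-loop-helix factor, fell from 229.8, 153 and 123 to 25.6, 20.6 and 17.8 CPM, and the ubiquitin ligase Dtx4 from 48.8 ± 5.39 to 6.09 ± 1.99 CPM. Against these, the ligand Jag1 rose from 9.87, 11.3 and 10.03 to 43.8, 63.02 and 58.7 CPM (log2 fold change 2.39, SE 0.09, adjusted p = 5.61e-09). The ligands Dll4 (log2 fold change -4.69, or -5.51 without CH replicate 3) and Jag2 (-1.19) fell as Dll1 did. Jag1 was thus the only ligand of the list that rose.

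The remaining signalling lists were mixed. Of 21 Hippo genes 4 rose and 4 fell (median -0.23), and 2 of the Tead factors at the end of the pathway moved apart. Tead1 rose from 49.2 ± 26.7 to 145 ± 11.02 CPM and Tead3 fell from 16.6 ± 9.28 to 1.54 ± 0.284 CPM. Of 13 Hedgehog genes 2 rose and 4 fell (median -0.37), or 2 without the replicate block. Gli2, the transcription factor of the pathway, was at 11.6, 10.8 and 6.79 CPM in DMSO and 40.2, 42.4 and 42.9 CPM in CH, and Smo, which relays the signal, at 82.6, 84.8 and 96.6 and 24.9, 18.97 and 16.96 CPM. Of 17 retinoic acid genes 4 rose and 5 fell (median -0.59). The retinoic acid carrier Crabp2 fell from 52.7 ± 11.2 to 7.11 ± 3.69 CPM. Of 20 Eph and ephrin genes, which guide contact between cells, 6 rose and 5 fell (median 0.25). The receptor Epha4 rose from 1.57, 2.85 and 3.66 to 69.1, 57.6 and 59.96 CPM (log2 fold change 4.57, SE 0.23, adjusted p = 6.33e-08). Of 21 Fgf ligands and receptors 2 rose and 7 fell (median -0.49).

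Of 37 glycolysis genes tested, 3 rose and 9 fell (median -0.32). The glucose transporter Slc2a1 (Glut1, chromosome 4, 119108711 to 119137983, GRCm38) was at 1397, 1523 and 1419 CPM in DMSO and 250.4, 267 and 288 CPM in CH (log2 fold change -2.43, SE 0.08, adjusted p = 2.62e-09). Slc2a3 (Glut3), a transporter with higher affinity for glucose, was at 278, 355 and 106 CPM in DMSO and 1534, 748 and 799 CPM in CH (log2 fold change 2.08, SE 0.29, adjusted p = 0.000109). The groups did not overlap for either gene, as in 49.7% of all genes tested, although Slc2a3 varied within both of them. Per kb of exon, the mean level of Slc2a1 was 413 CPM in DMSO and 76.6 in CH, and that of Slc2a3 was 33.99 and 142, so that the order of the transporters differed between the groups. Slc16a3 (Mct4), which exports lactate, fell from 357 ± 91.1 to 32.8 ± 3.66 CPM (log2 fold change -3.44, SE 0.16, adjusted p = 2.58e-08). Ldha, the main enzyme that makes lactate, was at 1675, 2238 and 1904 CPM in DMSO and 1009.7, 1138 and 1239 CPM in CH, and its log2 fold change of -0.78 did not reach the fold threshold. Hk2, which phosphorylates glucose, was at 351 ± 125 and 333 ± 56.4 CPM (log2 fold change -0.04). Fbp1, an enzyme of gluconeogenesis, fell from 25.3, 16.7 and 16.1 to 1.87, 2.09 and 2.40 CPM.

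**Figure D4:**
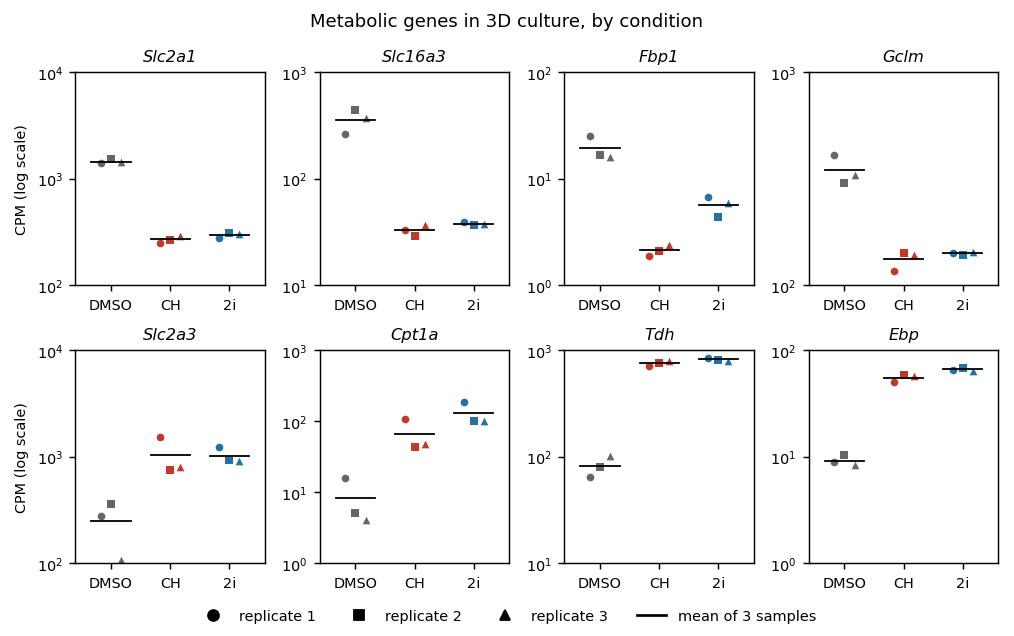
CPM per sample (log axis) of 8 metabolic genes in DMSO, CH and 2i, with 1 point per sample, a marker shape per replicate and a bar at the mean. Slc2a1, Slc16a3, Fbp1 and Gclm (top row) are lower in CH than in DMSO without overlap, and Slc2a3, Cpt1a, Tdh and Ebp (bottom row) are higher.

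Of 22 glycogen genes 0 rose and 4 fell (median -0.37). Pgm1, a phosphoglucomutase, fell from 65.97, 83.2 and 37.1 to 27.9, 12.9 and 15.1 CPM (log2 fold change -1.78, SE 0.24, adjusted p = 9.59e-05). Gys1, the glycogen synthase of most tissues, was at 67.9, 129.8 and 84.4 CPM in DMSO and 62.4, 70.02 and 71.6 CPM in CH, and did not pass (log2 fold change -0.44, adjusted p = 0.037). GSK3 acts on the protein of this enzyme, which RNA does not measure.

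Of 31 cholesterol genes 2 rose and 4 fell (6.45% and 12.9%, median -0.43), against 9.27% and 12.7% of all genes tested. Ebp, an isomerase of late cholesterol synthesis, was at 8.89, 10.2 and 8.33 CPM in DMSO and 49.7, 58.1 and 56.6 CPM in CH (log2 fold change 2.58, SE 0.08, adjusted p = 3.03e-09). Mvd, a decarboxylase of the mevalonate pathway, fell from 117, 133 and 148 to 53.2, 55.3 and 48.96 CPM (log2 fold change -1.33, SE 0.08, adjusted p = 1.47e-07). Abca1, which exports cholesterol, rose from 1.87 ± 0.313 to 10.9 ± 0.993 CPM. Among 28 genes of fatty acid synthesis 1 rose and 4 fell (median -0.37), and among 24 of fatty acid oxidation 2 rose and 0 fell (median 0.15). Of the latter, Cpt1a, which lets fatty acids into mitochondria, was at 15.5, 5.10 and 4.09 CPM in DMSO and 109, 42.5 and 47.8 CPM in CH (log2 fold change 3.05, SE 0.17, adjusted p = 1.06e-07). It rose further in 2i, to 184, 99.6 and 100.1 CPM (log2 fold change 1.02, SE 0.15, adjusted p = 0.000844 for 2i minus CH). The first sample of each group was the highest.

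Genes of mitochondrial respiration hardly moved. Of 61 respiratory chain genes 0 rose and 2 fell (median 0.13), and of 33 genes of the tricarboxylic acid cycle 1 rose and 0 fell (median 0.11). Mpc1, which carries pyruvate into mitochondria, rose from 5.06 ± 0.707 to 16.7 ± 3.16 CPM, with 35.7% of its transcript shared with other genes. In the list of serine, threonine and one-carbon metabolism 3 of 29 rose and 2 fell (median 0.11), and 5 rose without CH replicate 2 or 3. Tdh, the threonine dehydrogenase that mouse ES cells use for one-carbon units, was at 64.8, 79.9 and 101 CPM in DMSO and 714, 756 and 789 CPM in CH (log2 fold change 3.21, SE 0.14, adjusted p = 1.58e-08), but 59.5% of its transcript is shared. Phgdh, the entry to serine synthesis, was at 523 ± 32.7 and 472 ± 8.40 CPM. Of 25 genes of amino acid transport and of the amino acid stress response 1 rose and 2 fell (median -0.12). Of 34 glutathione and redox genes 3 rose and 5 fell (8.82% and 14.7%, median -0.23), near the shares over all genes. The latter included genes of glutathione synthesis that moved in opposite directions. Gss, the synthetase of the last step, rose from 18.4 ± 2.95 to 60.97 ± 14.1 CPM. Gclm, a subunit of the enzyme before it, fell from 408, 301 and 328 to 116, 142 and 139 CPM.

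Secreted proteins changed in every group examined. Of 15 Wnt ligands and R-spondins 5 rose and 4 fell (median 0.19). Wnt8a, a ligand of the streak, was at 0.213, 0.532 and 1.23 CPM in DMSO and 22.8, 29.4 and 22.7 CPM in CH (log2 fold change 5.38, SE 0.38, adjusted p = 6.38e-07), and the log2 fold change was 6.06 without DMSO replicate 3. Wnt3a, which maintains streak and tail bud, was at 2.86, 3.40 and 1.88 CPM in CH with 0 or 1 read per DMSO sample, a ratio of 132 and a counting interval of 36.1 to 1096. Wnt5b rose from 2.62, 2.07 and 1.77 to 59.6, 58.4 and 52.9 CPM (log2 fold change 4.70, SE 0.16, adjusted p = 4.38e-09). Of the 5 that rose, 4 were lower in 2i than in CH, against 123 of all 1522 genes that rose. Wnt3a and Wnt8a are also members of the streak and mesoderm list, so this count partly repeats that one. Both contrasts again share the CH samples. Wnt8a was at 2.16, 2.54 and 3.09 CPM and Wnt5b at 17.7, 25.3 and 23.6 CPM in 2i. Rspo1, an R-spondin that strengthens Wnt signals, fell from 6.59, 8.07 and 10.8 to 0.545, 0.785 and 0.400 CPM (log2 fold change -3.83, SE 0.25, adjusted p = 3.64e-07). Of 22 secreted antagonists 8 rose and 7 fell (median 0.27), and 4 fell without CH replicate 3. Dkk1, which blocks the Wnt co-receptor, rose from 0.0534, 0.282 and 0.0771 to 1.46, 1.57 and 2.16 CPM, with a log2 fold change of 3.63 that was 4.59 without DMSO replicate 2. Igfbp5, which binds insulin-like growth factors, fell from 91.7, 83.7 and 68.2 to 2.21, 0.948 and 1.08 CPM (log2 fold change -5.86, SE 0.20, adjusted p = 4e-09). Its change was the largest among the 7 antagonists that fell.

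Other growth factors and their carriers fell more often than they rose, with 15 of 40 lower and 9 higher (median -0.36). Ntn1 (netrin), a guidance cue, was at 4.75, 1.78 and 2.66 CPM in DMSO and 251, 348 and 369 CPM in CH (log2 fold change 6.63, SE 0.31, adjusted p = 3.68e-08), and the log2 fold change was 7.40 without DMSO replicate 1. Pdgfa, a ligand of the platelet-derived growth factor receptor, rose from 12.4, 7.07 and 7.71 to 103, 129.7 and 139 CPM, with 26.1% of its exons overlapping another gene. Midkine (Mdk), a heparin-binding factor, fell from 231, 214 and 229.7 to 63.9, 59.3 and 54.2 CPM. The groups were well apart in these 3 genes, with little spread among the samples for Mdk.

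**Figure D5:**
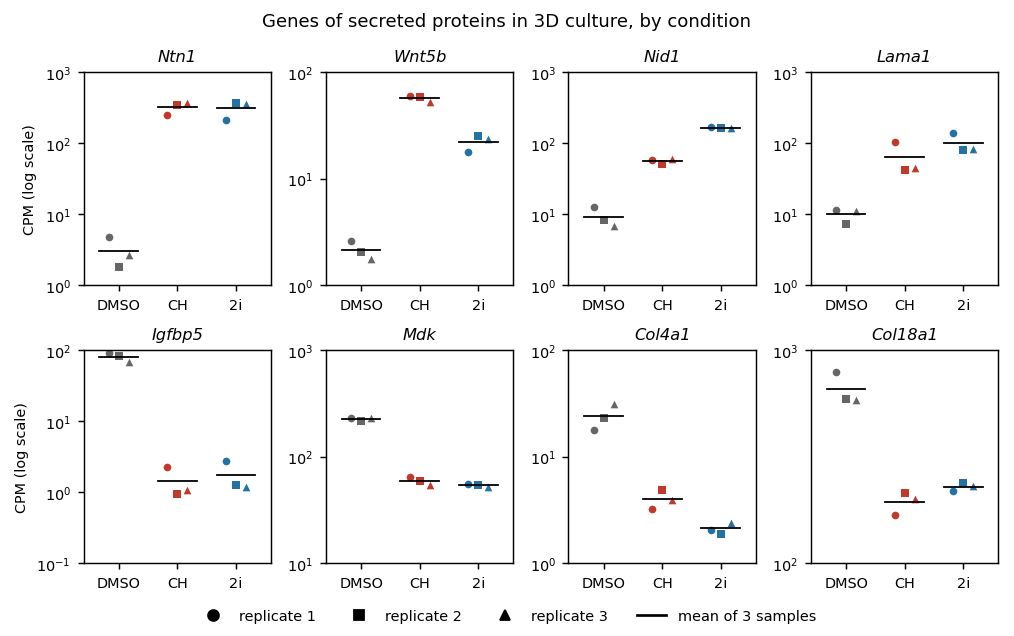
CPM per sample (log axis) of 8 secreted proteins in DMSO, CH and 2i, with 1 point per sample, a marker shape per replicate and a bar at the mean. Ntn1, Wnt5b, Nid1 and Lama1 (top row) are higher in CH than in DMSO, and Igfbp5, Mdk, Col4a1 and Col18a1 (bottom row) are lower, without overlap.

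Matrix genes were evenly split, with 11 of 44 that rose and 10 that fell (median -0.12). Within the basement membrane, the sheet that lines an epithelium, different chains moved in different directions. Nidogen 1 (Nid1), which links laminin to collagen, was at 12.5, 8.36 and 6.87 CPM in DMSO and 57.6, 50.5 and 59.2 CPM in CH (log2 fold change 2.61, SE 0.16, adjusted p = 2.07e-07). Laminin α1 (Lama1) rose from 11.3, 7.20 and 11.1 to 103, 41.4 and 44.1 CPM (log2 fold change 2.59, SE 0.19, adjusted p = 8.14e-07). Fibronectin (Fn1), a ligand of integrins, rose from 479.7, 345 and 291 to 1411, 1241 and 1158 CPM (log2 fold change 1.79, SE 0.09, adjusted p = 4.54e-08). In contrast, the collagen IV chains Col4a1 and Col4a2 fell, Col4a1 from 17.6, 23.1 and 31.1 to 3.20, 4.84 and 3.88 CPM and Col4a2 from 7.56 ± 1.14 to 2.08 ± 0.176 CPM. The chains Col4a5 and Col4a6 were tested and did not pass. Col18a1, a further collagen of basement membranes, fell from 792, 590.0 and 584 to 168, 213 and 201 CPM (log2 fold change -1.75, SE 0.12, adjusted p = 5.58e-07). Laminin β1 (Lamb1) was at 206, 116 and 118 and 219.9, 137 and 125 CPM, and overlapped between the groups. Matrigel is itself made of basement membrane protein, which RNA counts do not see. Thbs1 (thrombospondin) fell from 62.6, 6.10 and 9.76 to 1.53, 0.981 and 0.640 CPM. Its first DMSO sample was far above the others, and the log2 fold change of -4.22 was -3.61 without it and -3.47 without CH replicate 1.

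Of 40 secreted proteases and their inhibitors 4 rose and 11 fell (median -0.30). Prss8, a serine protease at the apical side of epithelia, fell from 57.9, 36.2 and 37.96 to 6.88, 2.26 and 2.12 CPM (log2 fold change -3.65, SE 0.22, adjusted p = 2.28e-07). Of 21 genes of host defence and of carrier proteins, 9 rose and 3 fell (median 0.65), or 6 fell with replicates 2 and 3 alone. Pglyrp1, a secreted protein that binds bacterial peptidoglycan, had 2 or 3 reads in each DMSO sample and stood at 80.4, 62.4 and 63.2 CPM in CH. The ratio was 821, with a counting interval of 416 to 1902, and 2i gave a similar level (93.8, 60.7 and 58.6 CPM).

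The fall of genes outside these lists can be read from the abundant genes that fell most. The kinesins Kif1a and Kif21a, motors on microtubules, fell from 257, 92.6 and 115 to 6.95, 1.73 and 1.28 CPM and from 114, 98.7 and 91.8 to 8.96, 5.95 and 5.20 CPM. Lrp2 (megalin), an endocytic receptor of polarised epithelia, fell from 229, 193 and 245 to 7.97, 12.5 and 10.6 CPM (log2 fold change -4.42, SE 0.15, adjusted p = 4.18e-09). The actin crosslinker Flnc was at 96.6 ± 12.98 CPM in DMSO and 6.81 ± 2.24 CPM in CH, and Crmp1, a protein of growth cones, at 169.7 ± 12.02 and 13.9 ± 5.52 CPM. Rab15, a small GTPase of endosomes, fell from 112 ± 25.8 to 8.81 ± 5.15 CPM and Trp53i11, named for its induction by p53, from 104 ± 18.4 to 4.34 ± 1.09 CPM. Of those that rose, Alox15, a lipoxygenase, was at 3.28, 4.57 and 4.94 CPM in DMSO and 145, 113 and 94.5 CPM in CH. In 2i it was at 7.00, 5.25 and 4.28 CPM (log2 fold change -4.42, SE 0.28, adjusted p = 8.86e-06 for 2i minus CH). Cnpy1, known from fish as a regulator of Fgf receptors, rose from 2.67, 3.41 and 1.70 to 267, 235 and 235 CPM, and stayed at 230.2, 201 and 227 CPM in 2i.

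Of 23 proliferation genes 0 rose and 1 fell (median -0.05), and Mki67, which marks cycling cells, was at 271, 271 and 247 CPM in DMSO and 222, 295 and 252 CPM in CH (log2 fold change -0.05, adjusted p = 0.762). Of 25 genes of the p53 response and apoptosis 1 rose and 4 fell (median -0.13). Cdkn1a (p21), an inhibitor of cyclin-dependent kinases, rose from 73.2, 48.7 and 36.5 to 303, 137 and 132 CPM (log2 fold change 1.80, SE 0.20, adjusted p = 2.2e-05), while Bcl2l11 (Bim), which promotes apoptosis, fell from 71.5 ± 9.12 to 25.2 ± 6.17 CPM. In the list of fibroblast and feeder cell genes 0 of 7 rose and 3 fell, or 5 without DMSO replicate 1 and 6 with replicates 2 and 3 alone. The summed level of the 7 fibroblast markers checked was 20.2 to 51.5 CPM in DMSO and 6.84 to 9.22 CPM in CH, of which Thy1 gave 14.87 to 47.95 CPM in DMSO. Postn, another of the 7 markers, was at 0 in all DMSO samples and at 0.04 CPM in CH replicate 3. Col1a1, Col1a2, Col3a1, Dcn and Twist1 had reads in every DMSO sample, at 0.107 to 3.82 CPM.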

How the data were processed

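Poly(A) RNA of 18 samples was sequenced with a directional kit for 75 cycles. The deposited values are raw counts for 49671 Ensembl genes (GRCm38), which the authors made by mapping to mm10 (TopHat2) and unstranded counting (HTSeq). Reads of a gene and of an antisense partner can therefore not be told apart. Separately, reads of near-identical copies cannot be placed with certainty, and may be counted for another gene or not at all. Symbols and positions were taken from GENCODE M21, in which 49412 identifiers matched.

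Samples were grouped by their labels. Genes passing edgeR's filterByExpr were fitted over the 12 wild-type samples grown for 48 h (4 conditions of 3) with condition and replicate number as terms, and CH minus DMSO and 2i minus CH were tested with edgeR's quasi-likelihood test (edgeR 4.0.16, R 4.3.3). Benjamini-Hochberg adjustment ran over all 16413 genes, and a call needed an adjusted p under 0.01 and an absolute log2 fold change over 1. Counting intervals are exact 95% Poisson intervals and cover counting error only, as does the floor of 3 counts. The labels do not say what a replicate number marks. Over 12376 genes, deviations from the condition means correlated at 0.428 to 0.622 between samples of the same number, so the numbers were taken as pairs. Between different numbers the correlation was -0.575 to -0.474 for pairs with replicate 1, but 0.511 for CH 2 with DMSO 3 and 0.411 for CH 3 with DMSO 2, so that the block mainly separates replicate 1 from replicates 2 and 3.

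The comparison, its members and 39 gene lists (913 genes tested) were chosen with earlier results of these data known. Genes were named as the 10 abundant ones with the largest change in each direction, as the 2 called members of each list with the largest change in each direction, or as other list members that show how a list is made up, called or not. Not all of the genes that the rule gives are described. Sequence sharing is the share of the longest transcript with a blastn 2.17.0 match of at least 75 bases at 95% identity to another gene. The fit was tested on simulated counts. Alternatives were fits without the block, on the 6 samples alone, with DESeq2 1.42.0 or its size factors, with other filters or fold thresholds, and without each sample. The fit of replicates 2 and 3 alone was added after seeing the data. The samples of the edited Esrrb lines (24 h) were not used. Some genes of the cholesterol list are not reported here.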

Additional observations from a re-analysis of the deposited data

How the results depend on the processing

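The counts of genes higher and lower in CH than in DMSO (1522 and 2086) stayed within 1.5 times under most alternatives: 1233 and 1674 without the replicate block, of which 1228 and 1669 were also called with it, 1438 and 2005 with DESeq2, and 1360 to 1484 and 1787 to 2033 with 1 sample left out. They were 3571 and 3851 with no minimum fold change, 992 and 1281 with at least 10 counts in every sample, and 779 and 1159 when tested against a log2 fold change of 1 (glmTreat). The counts for 2i against CH (138 higher, 534 lower) were less steady: 657 and 849 with no minimum fold change, 52 and 274 without the replicate block, and 10 and 103 with glmTreat. They were 348 lower with at least 10 counts in every sample, 210 higher with replicates 2 and 3 alone, and 79 to 126 and 325 to 504 with 1 sample left out. A higher threshold lowers a count and a lower one raises it by construction, and the cause of the other shifts was not tested. The calls were followed for 343 genes, which are the called genes of the lists and the abundant genes with the largest changes, some of them in no list. Of these, 262 kept the call under every alternative that tests them apart from glmTreat, 229 with it, and 0 reversed. The abundant genes were picked for large changes, which favours a kept call. Of 1170 recomputed list counts, 1017 stayed within 1.5 times. Genes at a few reads in DMSO, among them Mixl1 and Evx1, are limited by depth.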
